A study of Homo sapiens with 16 samples.

Results

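The HOX genes are homeobox transcription factors that lie in 4 clusters, HOXA, HOXB, HOXC and HOXD, and give cells of the embryo their position along the head-to-tail axis. Low-numbered genes (paralogues 1 to 4) are used in the hindbrain and in the cranial and vagal neural crest, and high-numbered ones further tailward. Midbrain and rostral crest cells keep the clusters silent, retinoic acid, WNT and FGF signals and the CDX factors open them, and Polycomb proteins hold them closed. Genes of the table whose symbol is HOX, a cluster letter and a paralogue number were taken, 39 of 23284 genes in all, and 38 of them are described as members here. These were 10 genes of HOXA, 10 of HOXB, 9 of HOXC and 9 of HOXD.

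The 16 libraries, made from poly-adenylated RNA, came from WA01, an established line of human embryonic stem cells, driven toward neural crest. Every library, wild type included, received 3 µM CHIR99021, an activator of WNT signalling, and 10 µM of the ROCK inhibitor Y-27632 at the start, after plating at 20000 cells per cm2. The groups were a FOXB1 sgRNA-KO line, a FOXB1 sgRNA-Het line and the isogenic wild-type lines 1 and 2, each with 2 replicates at day 5 (labelled neural crest cells) and 2 at day 3 (labelled pre-neural crest cells). FOXB1 is a forkhead transcription factor, and its translational start was edited with a single guide RNA. The study asked how loss of the protein alters expression during crest induction. Nothing in the labels says that KO or Het is more than 1 line, so line and genotype cannot be told apart, and nothing says that replicates came from separate cultures.

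The authors' deposited table gives 1 value per gene and group, as FPKM (fragments per kilobase of transcript, scaled to sequencing depth, so a level per length), for 6 groups: KO, Het and a single wild-type group at each day. It does not say which of the 4 wild-type libraries per day that group holds. Neither counts nor values of single libraries were at hand, so replicate spread is known only through the table's test scores. A gene was called, and is said to have risen or fallen, where the deposited q-value was below 0.05. Log2 changes carry the standard error (SE) implied by the deposited score. A listed 0 can be a failed estimate: EEF1A1, a translation factor that every cell uses, was listed at 0 FPKM in KO at day 5 and in wild type at both days, and at 4138 FPKM or more in the other groups. Such members are therefore called listed at 0, and no fold of a single member is given against a group listed at 0. Sums and medians over members count a listed 0 as 0, and are also given over the members above 0 in both groups. In bulk RNA, fewer cells of a type and less RNA per cell cannot be told apart.

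FOXB1 itself stood at 1.86, 4.47 and 5.51 FPKM in KO, Het and wild type at day 5, and at 15.5, 7.73 and 18.3 FPKM at day 3. The edit targets the start of translation, so these RNA levels do not check the genotype labels. Of 11 crest markers, 10 were tested at day 5, and 8 rose and 0 fell in KO against wild type by the authors' deposited table. Over all genes tested, 7.58% were called higher and 5.68% lower. In Het against wild type 6 of 10 rose and 0 fell by the authors' deposited table, beside 1.14% higher and 1.02% lower of all genes. SOX10, a defining crest factor, stood at 34.6, 7.07 and 0.388 FPKM in KO, Het and wild type at day 5, so the wild-type group labelled neural crest had SOX10 below 1 FPKM. FOXD3, another early crest factor, stood at 18.6, 4.49 and 0.198 FPKM. Other markers of the list were well expressed in wild type at day 5 and lower in Het. SNAI2 stood at 28.5, 19.5 and 23.2 FPKM and NGFR at 19.7, 14.3 and 17.5 FPKM in KO, Het and wild type. Both rose within wild type in day 5 against day 3 by the authors' deposited table, where 6 of 7 tested markers rose, beside 11.2% of all genes. Genes of chromosome 12, which carries HOXC, had a median log2 change of -0.50 in KO against wild type at day 5 (79.9% of 680 expressed genes below 0) and of -0.47 at day 3, and in Het of -0.27 and -0.52. For chromosomes 7, 17 and 2, which carry HOXA, HOXB and HOXD, that median in KO lay between -0.10 and 0.14. In KO against wild type at day 3 the median log2 change was 0.17 for the fifth of expressed genes with the lowest transcript GC content and -0.48 for the fifth with the highest. In Het against wild type these medians were 0.21 and -0.49, in KO against Het -0.031 and -0.0043, and in wild type in day 5 against day 3 0.40 and -0.54, so the shift appeared wherever the wild-type day 3 group was compared. At day 5 a smaller shift ran the other way: these medians were -0.14 and 0.082 in KO against wild type, and -0.22 and 0.16 in Het against wild type. The part of these shifts in the HOX levels was not tested beyond the centred values of the closing section.

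RefSeq start sites (build GRCh38.p14) were found for 20 of the 38 members. The sequences before the starts of HOXA2, HOXA9 and HOXB1 are shown because at day 5 HOXA2 was called lower in KO than in wild type and in Het, whereas HOXA9 was called higher than in Het and HOXB1 higher than in wild type. All are read 5′ to 3′ on the minus strand. HOXA9 (chr7:27165538-27165787) and HOXB1 (chr17:48531012-48531261) are given for the 250 bases before the start, and HOXA2 (chr7:27102812-27102933) for the part of its window that no annotated exon covers. The first 20 bases after the start lie in a GENCODE transcript of the gene for HOXA2 but not for HOXA9 or HOXB1 (13 of 27 windows in all), so the starts of HOXA9 and HOXB1 rest on RefSeq alone. Capitals mark the letters of the motifs described next.
HOXA2: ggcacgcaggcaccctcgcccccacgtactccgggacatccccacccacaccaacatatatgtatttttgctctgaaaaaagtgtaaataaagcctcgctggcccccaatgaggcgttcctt
HOXA9: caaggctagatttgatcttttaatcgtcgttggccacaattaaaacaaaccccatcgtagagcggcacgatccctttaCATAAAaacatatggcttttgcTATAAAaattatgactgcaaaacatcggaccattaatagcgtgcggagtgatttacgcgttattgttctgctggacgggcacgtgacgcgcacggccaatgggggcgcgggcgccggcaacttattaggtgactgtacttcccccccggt
HOXB1: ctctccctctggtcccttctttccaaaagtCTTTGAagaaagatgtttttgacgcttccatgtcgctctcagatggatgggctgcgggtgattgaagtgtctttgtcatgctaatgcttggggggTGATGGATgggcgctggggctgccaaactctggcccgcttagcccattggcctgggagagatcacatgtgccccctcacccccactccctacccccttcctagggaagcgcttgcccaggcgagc

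Motifs were searched on both strands of the 250 bases before each RefSeq start. The HOXA9 window held the CDX letters TTTATG on the reverse strand 172 bases before the start and the TATA box TATAAA 150 bases before it. The HOXB1 window held the TCF and LEF core CTTTGA at 220 bases and the PBX-HOX letters TGATNNAT at 125 bases. The HOXA2 window held TGATNNAT on the reverse strand 114 bases before the start, within an annotated exon and so outside the stretch printed. No match overlapped another in these windows. Over all 34788 windows of this length, TTTATG was found in 9.65%, TATAAA in 10.8%, CTTTGA in 11.2% and TGATNNAT in 6.49%, so each is common. Of the 26 distinct HOX windows, 3 held TTTATG, 5 TATAAA, 3 CTTTGA and 3 TGATNNAT. The retinoic acid receptor half-site AGGTCA was found in 12.02% of all windows and in 0 of these 26, a set too small to read a 0 as a lack. The count of CG pairs was 20 in the HOXA9 window, 7 in that of HOXB1 and 8 in that of HOXA2, beside a median of 11 over all windows.

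At day 5 the KO cells held RNA of 3 HOX clusters, whereas HOXA2 made up most of the level in Het and wild type. In KO, 21 of 38 members reached 0.1 FPKM and 10 reached 1 FPKM. In Het 2 and 1 members did so, and in wild type 4 and 1. Summed over the 38 members, the level was 37.3 FPKM in KO, 9.81 in Het and 11.04 in wild type at day 5, and 4.24, 1.25 and 3.52 FPKM at day 3. The summed level of KO at day 5 was thus the highest of the 6 groups, and that of Het at day 3 the lowest. Of the 24 members above 0 anywhere, 21 had their highest level in KO at day 5, which was 87.5%, while 23.7% of the 21077 genes above 0 had theirs in that group. A level of at least 0.2 FPKM in KO at day 5 and below it in the other 5 groups was shown by 16 of 38 members (42.1%) and by 300 of all 23284 genes (1.29%). Both patterns were chosen after the levels were seen and carry no test.

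**Figure D1:**
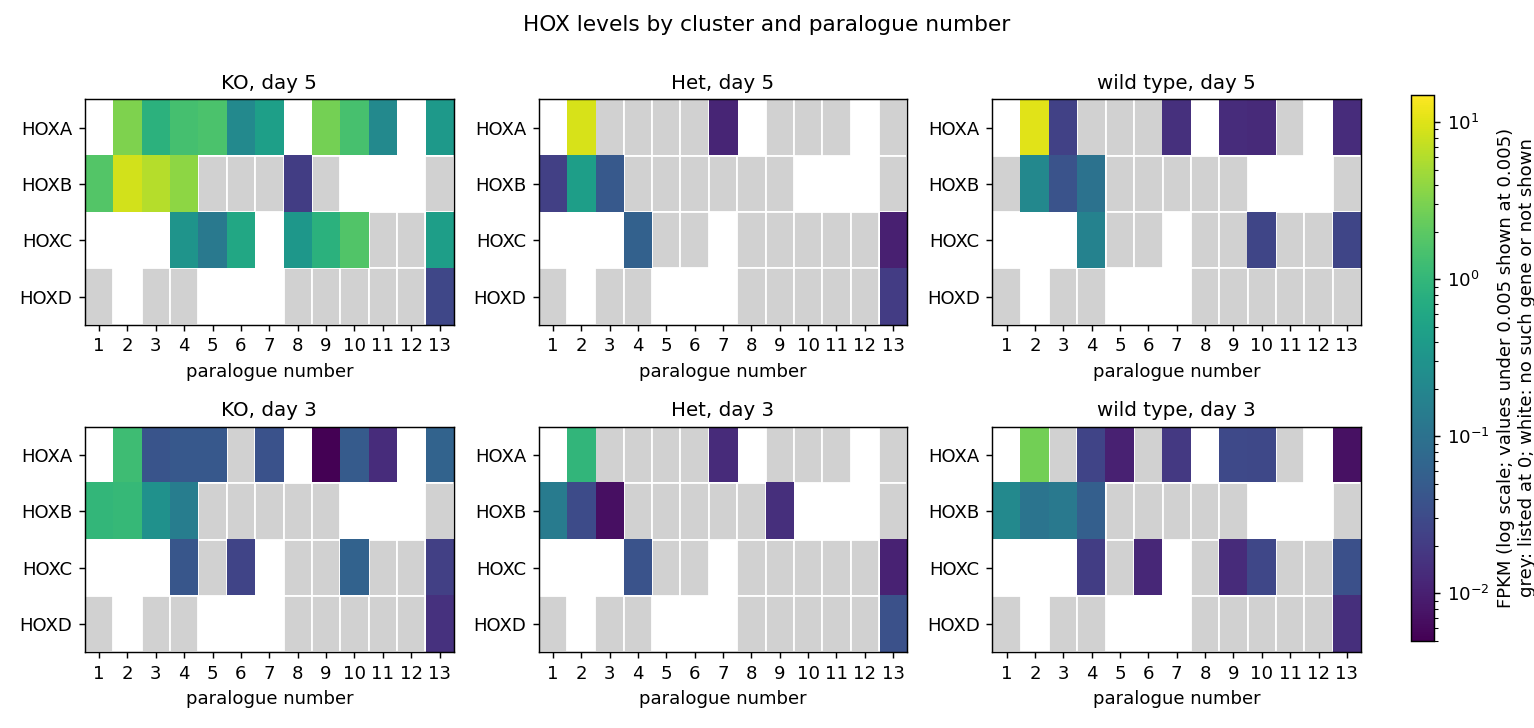
FPKM of 38 HOX genes (colour, log scale) by cluster (rows) and paralogue number (columns) in 6 groups, with grey cells listed at 0 and white cells where the cluster has no such gene or it is not shown. In KO at day 5 the 10 HOXA genes shown, HOXB1 to HOXB4 and 7 of 9 HOXC genes are coloured above 0.1 FPKM, while in Het and wild type at day 5 HOXA2 stands out.

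The clusters did not share 1 pattern. The HOXB sum over the members described was 20.4, 0.517 and 0.350 FPKM in KO, Het and wild type at day 5, a ratio of 58.2 of KO over wild type (53.1 over the 3 genes above 0 in both). The HOXC sum was 4.40, 0.0702 and 0.227 FPKM, a ratio of 19.3 (10.9 over the 3 genes above 0 in both), although the genes of its chromosome were lower in KO. The HOXA sum was closer across the lines, at 12.5, 9.20 and 10.5 FPKM, but its makeup differed: without HOXA2 it was 9.34 FPKM in KO and 0.0795 in wild type. The HOXA ratio of KO over wild type was 1.196, but 0.871 over the 6 genes above 0 in both, so its direction turned. The HOXD sum was 0.0276, 0.0204 and 0 FPKM. At day 3 the HOXB sum was already 2.50, 0.194 and 0.507 FPKM in KO, Het and wild type, while the HOXA sum was 1.57, 0.974 and 2.89 FPKM. The HOXB ratio over wild type at day 3 was thus 4.94 in KO and 0.382 in Het, and the HOXA ratio 0.542 and 0.337. The HOXB ratio in KO stayed above 1 without HOXB2, its highest member, at 3.63. The others depended more on 1 gene each. Without HOXA2 the HOXA ratio was 2.49 in KO, so its direction turned, and 0.112 in Het. Without HOXB1 the Het HOXB ratio was 0.183.

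**Figure D2:**
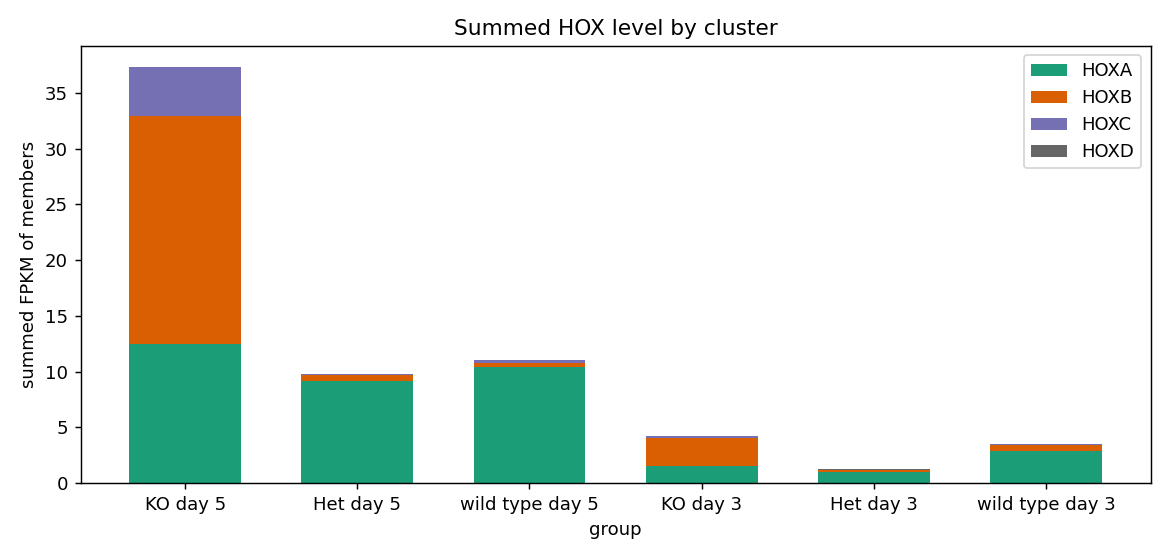
Summed FPKM of the HOX genes of each cluster (stacked bars; no error is drawn, since replicate values were not at hand) in 6 groups. In KO at day 5 HOXB contributes 20.4 of 37.3 FPKM, whereas in wild type at day 5 HOXA contributes 10.5 of 11.04 FPKM.

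HOXB1 to HOXB4 give hindbrain and vagal levels their identity. HOXB2 (chromosome 17, 46620019 to 46622393 in hg19), the most abundant member in KO, stood at 8.60, 0.447 and 0.211 FPKM in KO, Het and wild type at day 5, and at 1.06, 0.0316 and 0.107 FPKM at day 3. HOXB2 rose in KO against wild type at day 5 in the authors' deposited table (log2 change 5.35, SE 1.00, q = 0.00316). It rose against Het at day 5 (4.26, SE 0.74, q = 0.00126) and within KO in day 5 against day 3 (3.03, SE 0.68, q = 0.00126), both in the authors' deposited table. At both days KO was thus well above the other lines, yet its day 3 change over wild type was not called in the authors' deposited table (3.30, SE 1.18, q = 0.181).

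HOXB3 (chromosome 17, 46626232 to 46651810), of the hindbrain and its crest, stood at 6.11, 0.0469 and 0.0386 FPKM in KO, Het and wild type at day 5, and at 0.288, 0.0070 and 0.128 FPKM at day 3. HOXB3 rose in KO against Het at day 5 (7.02, SE 1.14, q = 0.0400) and within KO in day 5 against day 3 (4.40, SE 0.70, q = 0.00126) in the authors' deposited table. The call against Het was lost with adjustment within the comparison. Against wild type at day 5 its log2 change was as large but was not called in the authors' deposited table (7.30, SE 1.33, q = 0.136). HOXB4 (46652869 to 46655743), used at the hindbrain and spinal cord border, stood at 3.90 FPKM in KO, was listed at 0 in Het and stood at 0.101 FPKM in wild type at day 5, with 0.148, 0 and 0.0556 FPKM at day 3. HOXB4 rose within KO in day 5 against day 3 in the authors' deposited table (4.72, SE 0.97, q = 0.0162) and was called higher than in Het (q = 0.00126). Against wild type at day 5 it was not called in the authors' deposited table (5.27, SE 1.16, q = 0.0674). HOXB2, HOXB3 and HOXB4 thus had their highest level of the 6 groups in KO at day 5, each over 10 times that of any group of another line.

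HOXB1 (46606807 to 46608272), whose expression marks rhombomere 4 of the hindbrain, stood at 1.78 FPKM in KO and 0.0229 in Het and was listed at 0 in wild type at day 5. Its day 3 levels were 1.01, 0.141 and 0.216 FPKM. HOXB1 was called higher in KO than in wild type at day 5 (q = 0.00126) but not in KO than in Het (6.28, SE 3.57, q = 0.571) in the authors' deposited table. Within KO the log2 change of HOXB1 in day 5 against day 3 was 0.81 (SE 0.91, q = 0.514 in the authors' deposited table), so its level in KO did not move beyond its error. The row of KO levels ended at HOXB4: the next genes, HOXB5, HOXB6 and HOXB7, were listed at 0 in all 6 groups, as was HOXB13. HOXB8 was at 0.0217 FPKM in KO at day 5 and HOXB9 at 0.0146 FPKM in Het at day 3, and both were listed at 0 elsewhere.

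HOXA2 was the most abundant HOX gene described in Het and wild type at both days. HOXA2 (chromosome 7, 27139973 to 27142394), which patterns the crest of the second pharyngeal arch, stood at 3.17, 9.19 and 10.4 FPKM in KO, Het and wild type at day 5, and at 1.27, 0.960 and 2.77 FPKM at day 3. HOXA2 rose in day 5 against day 3 in Het (3.26, SE 0.71, q = 0.00126) and in wild type (1.91, SE 0.60, q = 0.00126) in the authors' deposited table. Within KO the same change was 1.32 (SE 0.68) and was not called in the authors' deposited table (q = 0.0643). HOXA2 fell in KO at day 5 against wild type (-1.71, SE 0.59, q = 0.00227) and against Het (-1.54, SE 0.61, q = 0.0132), and in Het at day 3 against wild type (-1.53, SE 0.75, q = 0.0245), in the authors' deposited table. Among the members called in KO at day 5, HOXA2 was thus the 1 that was lower. The difference between the day 5 over day 3 changes of KO and of wild type was -0.59 (SE 0.91) for HOXA2, and that between Het and wild type was 1.35 (SE 0.93). Neither passed a 2-sided normal test after Benjamini-Hochberg adjustment over all genes with an SE, nor had an unadjusted p below 0.05, beside 0.318% (KO) and 0.112% (Het) of all genes called. With the SE scaled to the deposited p-values, the unadjusted p in Het was 0.0240 and the adjusted p 0.349 by the same normal test. No other member described had the scores for this test.

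**Figure D3:**
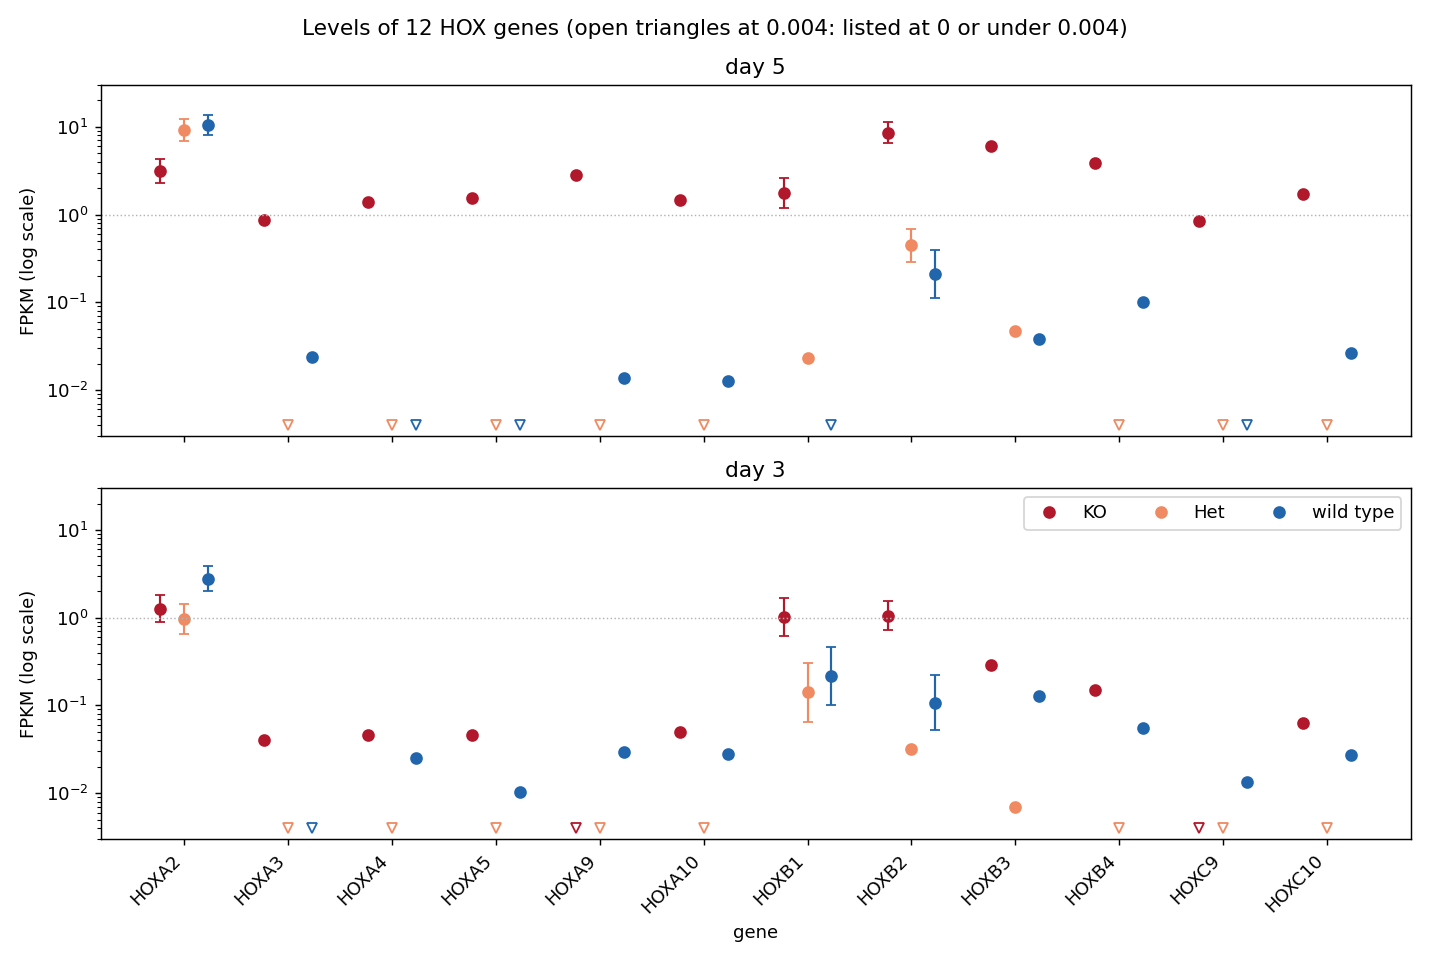
FPKM (log axis) of the 12 HOX genes described that reached 1 FPKM or were called, in KO, Het and wild type at day 5 (upper panel) and day 3 (lower panel), with bars of 1 SE where the deposited scores fix it below 2 on the log2 scale. At day 5 KO lies above 0.8 FPKM for these 12 genes, while Het and wild type reach that for HOXA2 alone.

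The HOXA genes from HOXA3 to HOXA13 were near 0 in every group but KO at day 5. HOXA9, of trunk and limb levels, stood at 2.81 FPKM in KO, was listed at 0 in Het and stood at 0.0138 FPKM in wild type at day 5, and did not exceed 0.0295 FPKM in any group at day 3. HOXA5, of the cervical level, stood at 1.56 FPKM in KO at day 5 and was listed at 0 in Het and wild type, and HOXA10 stood at 1.45, 0 and 0.0128 FPKM. HOXA4 stood at 1.39 FPKM in KO at day 5 and was listed at 0 in both other lines, and HOXA3, needed for the third pharyngeal arch, stood at 0.862, 0 and 0.0237 FPKM. At day 3 the highest of these 5 genes in any group was HOXA10 in KO at 0.0504 FPKM. Within KO, Cuffdiff called none of the 5 in day 5 against day 3 in the authors' deposited table. The q-values there were 0.154, 0.107, 0.482, 0.568 and 0.197 for HOXA3, HOXA4, HOXA5, HOXA9 and HOXA10. HOXA4 was called higher in KO than in wild type at day 5, and HOXA3, HOXA4, HOXA9 and HOXA10 higher than in Het, each with q = 0.00126 in the authors' deposited table. Each of these calls was against a group listed at 0, which can be a failed estimate. HOXA5 was called against neither line, with q = 0.381 against wild type and 0.351 against Het in the authors' deposited table. Against wild type at day 5, HOXA3 (5.18, SE 2.25, q = 0.524) and HOXA10 (6.82, SE 4.39, q = 0.536) were not called in the authors' deposited table. HOXA6, HOXA7, HOXA11 and HOXA13 reached 0.220, 0.463, 0.218 and 0.367 FPKM in KO at day 5, at most 0.0642 FPKM in any other group, and were not tested. HOXA5, HOXA6 and HOXA7 share 1 locus in the table, and so do HOXA9, HOXA10 and the read-through gene HOXA10-HOXA9 (0.153, 0 and 6.29e-07 FPKM in KO, Het and wild type at day 5), so the split of reads within each locus is uncertain.

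Of HOXC, 7 of 9 genes reached 0.1 FPKM in KO at day 5. HOXC10, of lumbar levels, stood at 1.72 FPKM in KO, was listed at 0 in Het and stood at 0.0263 FPKM in wild type at day 5, and at 0.0629, 0 and 0.0272 FPKM at day 3. HOXC9, of thoracic levels, stood at 0.837 FPKM in KO at day 5 and was listed at 0 in Het and wild type. HOXC9 was called higher in KO than in wild type and Het at day 5, and in KO in day 5 against day 3, each with q = 0.00126 in the authors' deposited table. HOXC10 was called against Het (q = 0.00126) and not against wild type (6.03, SE 2.42, q = 0.412) in the authors' deposited table. HOXC4, HOXC5, HOXC6, HOXC8 and HOXC13 reached 0.320, 0.129, 0.609, 0.349 and 0.438 FPKM in KO at day 5, against at most 0.174 FPKM (HOXC4, wild type, day 5) elsewhere. HOXC4, HOXC5 and HOXC6 share 1 locus, and HOXC11 and HOXC12 were listed at 0 in all groups. No HOXD gene reached 0.1 FPKM in any group: 8 of the 9 were listed at 0 in all 6 groups, and HOXD13 did not exceed 0.0363 FPKM. In all, 14 members (36.8%) were listed at 0 in every group, as were 2207 of all genes (9.48%).

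The share of high-numbered members was largest in KO at day 5. Paralogues 9 to 13 made up 21.1% of the summed HOX level in KO, 0.311% in Het and 0.847% in wild type at day 5. Paralogues 1 to 4 made up 69.96%, 99.6% and 99.0% in KO, Het and wild type at day 5, and 92.01%, 94.0% and 94.4% at day 3. Within KO at day 5, 8 of 11 members of paralogues 1 to 4, 6 of 11 of paralogues 5 to 8 and 7 of 16 of paralogues 9 to 13 reached 0.1 FPKM.

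Counts of calls are small because few members were tested. In KO against wild type at day 5, 12 of 38 members were tested in the authors' deposited table, and 4 rose, of which 3 were listed at 0 in wild type, and 1 fell, while 7.58% of all 14936 genes tested were called higher and 5.68% lower. In KO against Het at day 5, 9 of 12 tested members rose, of which 7 were listed at 0 in Het, and 1 fell by the authors' deposited table, beside 5.55% higher and 2.51% lower of all genes. In Het against wild type at day 5, the 1 tested member, HOXA2, was not called by Cuffdiff in the authors' deposited table (-0.18, SE 0.56, unadjusted p = 0.634), beside 1.14% higher and 1.02% lower of all genes. No other tool could be run on group values. The 3 comparisons share their groups in pairs, so they are not independent. The median change on the log2 scale with 0.1 FPKM added, over members above 0 in either group, was 2.83 in KO against wild type at day 5 (23 members, all genes 0.06), 2.83 in KO against Het (23 members, all genes 0.05) and -0.18 in Het against wild type (14 members, all genes -0.01). Both KO medians depended on the value added, at 0.69 each with 1 FPKM and at 5.14 (against wild type) and 5.23 (against Het) with 0.01 FPKM. Over members above 0 in both groups the medians were 3.37 (12 members), 2.31 (8 members) and -0.11 (6 members) in the same order.

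At day 3, Cuffdiff called 0 of 3 tested members (HOXA2, HOXB1 and HOXB2) in KO against wild type in the authors' deposited table, though all 3 had an unadjusted p below 0.05, beside 4.34% higher and 5.17% lower of all genes. In KO against Het it called 0 of the same 3, and 1 had an unadjusted p below 0.05, beside 2.3% higher and 0.54% lower. HOXA2, the 1 member tested in Het against wild type, fell, beside 1.68% higher and 4.63% lower of all genes by the authors' deposited table. Over the course, 4 of 12 tested members rose in day 5 against day 3 in KO, beside 7.29% of all genes higher, in the authors' deposited table. In Het the 1 tested member, HOXA2, rose, beside 4.74%, as it did in wild type, beside 11.2%, in the authors' deposited table. None of these tested members fell over the course, beside 4.53%, 2.83% and 10.4% of all genes lower in KO, Het and wild type. With 1 member tested in Het and in wild type, this says little of those lines. By level alone, without a test, 5 of 9 members above 0 at either day were lower at day 5 in Het. In wild type 12 of 18 were lower and in KO 0 of 23. Of all genes above 0, 55.2%, 51.3% and 47.5% were higher at day 5 in KO, Het and wild type.

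Calls of members differed with whether the compared group was listed at exactly 0. Over all 15 comparisons in the authors' deposited table, tests of members with at least 0.5 FPKM in the higher group and at least 8 times less in the lower had q below 0.05 in 20 of 23 cases with the lower group listed at 0, and in 3 of 30 with it above 0 and under 0.2 FPKM. These tests repeat the same few genes, mostly with KO at day 5 as the higher group, so they are not independent. Over all genes the shares ran the other way, at 14.3% of 1572 and 39.3% of 1751 tests. HOXA9 in KO at day 5 is an example among members: it was called against Het, listed at 0, and not against wild type at 0.0138 FPKM (7.67, SE 3.20, q = 0.297) in the authors' deposited table. A missing call against wild type at day 5 thus does not show that the levels were alike.

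HOTAIRM1, a noncoding RNA of the HOXA cluster whose locus does not overlap that of HOXA2, stood at 5.92, 21.4 and 37.2 FPKM in KO, Het and wild type at day 5, and at 2.23, 0.988 and 3.60 FPKM at day 3. HOTAIRM1 fell in KO at day 5 against wild type (-2.65, SE 0.61, q = 0.00126) and against Het (-1.85, SE 0.63, q = 0.00476), as HOXA2 did, in the authors' deposited table. It rose in day 5 against day 3 in Het (4.43, SE 0.91, q = 0.00126) and wild type (3.37, SE 0.64, q = 0.00126) in the authors' deposited table. The 7 other HOX cluster noncoding RNAs of the list that the table holds did not exceed 0.0362 FPKM, the level of HOTAIR, the HOXC antisense RNA, in KO at day 5.

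Of 11 genes of retinoic acid synthesis, breakdown and response, 7 were tested in KO against wild type at day 5, where CRABP2 was called higher and 4 genes lower, by the authors' deposited table. Over all genes tested there, 7.58% were called higher and 5.68% lower. RARB, a receptor that retinoic acid itself induces, stood at 0.716, 15.3 and 28.3 FPKM in KO, Het and wild type at day 5, and fell in KO against wild type (-5.30, SE 0.58, q = 0.00126) in the authors' deposited table. CYP26A1, which breaks retinoic acid down, stood at 4.81, 58.0 and 63.9 FPKM and fell in KO against wild type (-3.73, SE 0.54, q = 0.00126) in the authors' deposited table. HOXA2, HOTAIRM1, RARB and CYP26A1 were thus all lower in KO than in either other line at day 5, while HOXB1 to HOXB4 were higher. At day 3, 3 of 9 tested genes of the list were higher and 3 lower by call in KO against wild type (the authors' deposited table), beside 4.34% higher and 5.17% lower of all genes. ALDH1A2, which makes retinoic acid, stood at 0.649, 0.119 and 0.0339 FPKM in KO, Het and wild type at day 3 and rose in KO against wild type (4.26, SE 1.74, q = 0.0162) in the authors' deposited table. In Het, 0 of 7 tested genes rose and 4 fell against wild type at day 3 (RARB, CYP26A1, CYP26C1 and RARG), and Cuffdiff called 0 of 7 at day 5 (1 with an unadjusted p below 0.05), by the authors' deposited table. Of all genes tested in Het, 1.68% were higher and 4.63% lower at day 3, and 1.14% and 1.02% at day 5.

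Among caudal and posterior inducers, 2 of 5 tested genes rose (T and WNT3A) and 1 fell (WNT8A) in KO against wild type at day 3, and 0 of 4 were called by Cuffdiff at day 5 (1 with an unadjusted p below 0.05), by the authors' deposited table. Of all genes tested in KO against wild type, 4.34% were called higher and 5.17% lower at day 3, and 7.58% and 5.68% at day 5. In Het against wild type, WNT3A also rose and WNT8A fell of 4 tested at day 3, by the authors' deposited table. At day 5 WNT3A rose of 3 tested there. Of all genes tested in Het, 1.68% were called higher and 4.63% lower at day 3, and 1.14% and 1.02% at day 5. WNT3A stood at 1.74, 3.45 and 0.331 FPKM in KO, Het and wild type at day 3 and at 6.22, 11.2 and 3.31 FPKM at day 5, so it was highest in Het. T, the brachyury factor of the primitive streak and tail bud, stood at 1.29, 0.139 and 0.232 FPKM in KO, Het and wild type at day 3 and rose in KO (2.47, SE 0.91, q = 0.0105) in the authors' deposited table. T was at 0.0895 FPKM in KO and 0.0115 in wild type at day 5, and listed at 0 in Het. CDX1, CDX2 and CDX4, direct activators of trunk HOX genes, did not exceed 0.400 FPKM in any group, the level of CDX4 in KO at day 3. Of the rostral factors, 1 of 3 tested, OTX2, rose in KO against wild type at day 5 by the authors' deposited table. OTX2, the forebrain and midbrain factor, stood at 24.8, 25.0 and 11.2 FPKM in KO, Het and wild type at day 5, and rose in KO (1.14, SE 0.53, q = 0.0172) and Het (1.15, SE 0.57, q = 0.0214) against wild type in the authors' deposited table. At day 5 a rostral gene and tailward HOX genes were thus both higher in KO than in wild type. Whether the same cells held them was not measured. At day 3 OTX2 stood at 63.4, 41.5 and 10.97 FPKM in KO, Het and wild type. OTX2 fell within KO in day 5 against day 3 in the authors' deposited table (q = 0.00126), whereas HOXB2 to HOXB4 rose. Of 3 rostral factors tested in KO against wild type at day 3, OTX2 and EN1 rose. Of 4 tested in Het, OTX1, OTX2 and EN1 rose and GBX2 fell, by the authors' deposited table. EGR2, which marks hindbrain rhombomeres, stood at 7.74, 1.48 and 6.07 FPKM in KO, Het and wild type at day 5, and at 14.7, 2.27 and 4.26 FPKM at day 3. EGR2 rose in KO against wild type at day 3 (1.79, SE 0.53, q = 0.00126) and fell in Het at day 5 (-2.03, SE 0.71, q = 0.00126) by the authors' deposited table. Its change in KO against wild type at day 5 was not called there (0.35, SE 0.68).

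**Figure D4:**
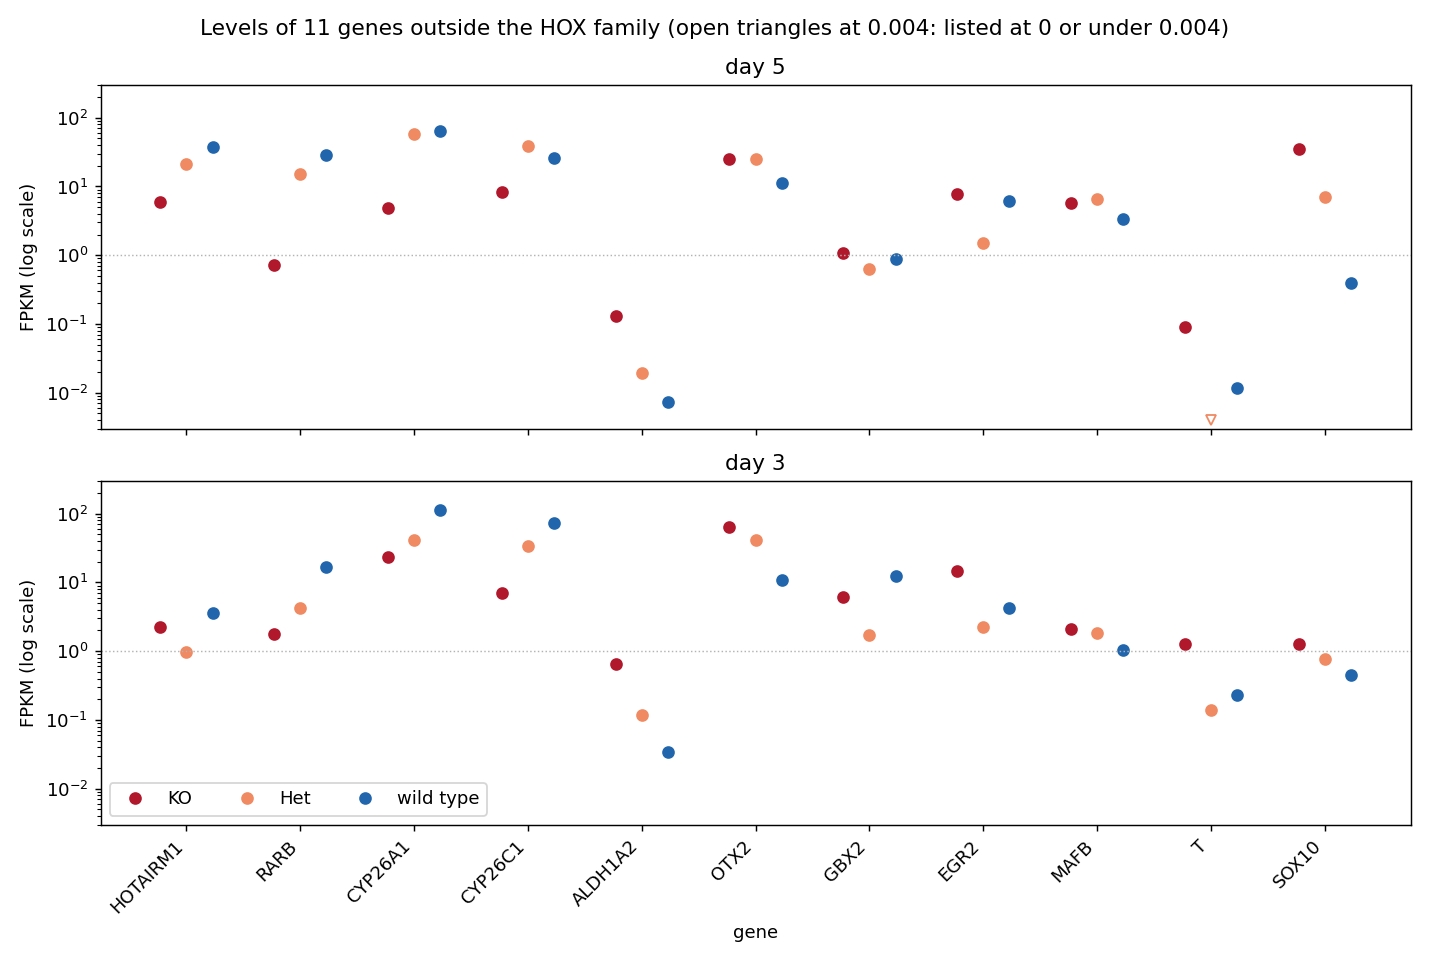
FPKM (log axis, no error drawn) of 11 genes outside the HOX family, picked after their values were seen, in KO, Het and wild type at day 5 (upper panel) and day 3 (lower panel). At day 5 HOTAIRM1, RARB, CYP26A1 and CYP26C1 lie lowest in KO, while SOX10 lies highest there at 34.6 FPKM.

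Of the 9 TALE factors, the PBX, MEIS and PKNOX partners of HOX proteins, 1 rose (PKNOX2) and 1 fell (MEIS2) in KO against wild type at day 5 by the authors' deposited table, beside 7.58% higher and 5.68% lower of all genes. PKNOX2 stood at 12.2, 8.40 and 3.31 FPKM in KO, Het and wild type (KO against wild type 1.88, SE 0.52, q = 0.00126), and MEIS2 at 16.99, 29.9 and 35.9 FPKM (-1.08, SE 0.46, q = 0.00615), in the authors' deposited table. Of 15 Polycomb and Trithorax genes tested, Cuffdiff called 0 for day 5 KO against wild type by the authors' deposited table, where 1 had an unadjusted p below 0.05. At day 3, 2 of 16 tested genes of that list rose in KO (RNF2 and KDM6A) and 0 fell by the authors' deposited table, beside 4.34% higher and 5.17% lower of all genes. In Het Cuffdiff called 0 of 16 at either day, with 0 at an unadjusted p below 0.05, by the authors' deposited table.

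Markers of other cell types that use HOX genes were read beside the KO levels at day 5. Of all genes tested in KO against wild type at day 5, 7.58% were called higher and 5.68% lower, the shares to set beside the counts below. Of 10 mesoderm markers, 2 of 4 tested rose (FOXC1 and KDR) and 0 fell in KO against wild type in the authors' deposited table, with a summed level of 6.64, 3.26 and 2.099 FPKM in KO, Het and wild type. FOXC1 stood at 1.90, 0.141 and 0.0944 FPKM and KDR at 2.83, 1.63 and 0.404 FPKM in KO, Het and wild type. The defining mesoderm factors MSGN1, HAND1 and GATA4, picked after their values were seen, were also highest in KO at day 5, at 0.0669, 0.0787 and 0.0927 FPKM, did not exceed 0.0252 FPKM in Het and were listed at 0 in wild type. TCF15, of the same list and better expressed, ran the other way, at 0.476, 0.779 and 1.08 FPKM in KO, Het and wild type. Of 7 endoderm markers, 1 of 1 tested rose (FOXA2) in the authors' deposited table, with sums of 1.74, 0.463 and 0.427 FPKM. FOXA2 stood at 0.604 FPKM in KO and was listed at 0 in Het and wild type, and no endoderm marker reached 1 FPKM. AFP ran the other way, at 0.0119, 0.0780 and 0.0813 FPKM. Of 7 neural tube markers, 1 rose (OLIG2) and 3 fell (SOX1, SOX2 and SOX3), with sums of 77.0, 124 and 171 FPKM, and of 7 neuron markers 1 rose (DCX), with sums of 66.1, 78.9 and 85.2 FPKM, in the authors' deposited table. TUBB3 made up most of the neuron sum, at 57.5, 74.2 and 80.1 FPKM in KO, Het and wild type. The median log2 change of the neuron markers in KO against wild type, with 0.1 FPKM added, was 0.18. Of 6 pluripotency markers, 1 rose (POU5F1) and 1 fell (DPPA4), with sums of 63.6, 71.1 and 79.6 FPKM, in the authors' deposited table. DPPA4 made up most of that sum, at 34.6, 46.9 and 59.5 FPKM in KO, Het and wild type. The median log2 change of the pluripotency markers in KO against wild type, with 0.1 FPKM added, was 0.43, so sum and median differed in direction. The crest sum was 265, 113 and 64.4 FPKM, so the crest, mesoderm and endoderm sums and the HOXB and HOXC sums were all highest in KO. In Het the crest, mesoderm, endoderm and HOXB sums lay above those of wild type and the HOXC sum, near 0 in both, below. The endoderm and HOXB sums were also below 1 FPKM in both lines. Without HOXB2 the HOXB sum was lower in Het, at 0.0698 against 0.140 FPKM, so its direction turned. The part of any of these cell types in the HOX levels was not tested.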

How the data were processed

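Per the submitters' processing notes, reads were aligned with TopHat2 2.1.1 to hg19 and quantified and tested with Cuffdiff 2.2.1. Annotation, strand setting and filters are not stated there. The authors' deposited table gives FPKM per gene and group, log2 fold changes, a test score (log change over its standard error), p-values and q-values for 15 comparisons of 6 groups, 9 of which were used. The group HOMO was read as KO. Deposited log2 fold changes were recomputed from the FPKM, as KO over wild type, Het over wild type, KO over Het and day 5 over day 3. The implied SE is the log2 change divided by the score. The smallest deposited p-value is 5e-05. The deposited loci were turned to 1-based coordinates.

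Named members had at least 1 FPKM in a group or a call (12 of 38); the other 26 are given by level and count. Of 122 listed genes, 110 were in the table. One member and a few listed genes are not reported here. Members, lists and tests were chosen with earlier results of these data known. Differences of day 5 over day 3 changes were tested by a normal p, 2-sided and adjusted by Benjamini-Hochberg over all genes with an SE, and the procedure was tested on simulated data. Start sites came from RefSeq, and transcript GC content from GENCODE. Depth is unknown, since the FPKM show no steps of single reads. Python 3.11.15, pandas 2.3.3 and SciPy 1.17.1 were used.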

Additional observations from a re-analysis of the deposited data

How the results depend on the processing

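No paired analysis was possible because the deposited table holds 1 value per group, and leaving out replicates was not run for the same reason. With q below 0.01, 0 members were called in Het against wild type at day 3, beside 1. All other counts stayed within 1.5 times.

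The median changes depended on the pseudocount. At 1 FPKM they were 0.69 (KO against wild type, day 5), 0.69 (KO against Het, day 5) and 0.65 (KO, day 5 against day 3), and at 0.01 FPKM 5.14, 5.23 and 4.12, with -1.03 in Het against wild type at day 5 and -1.19 (Het against wild type) and 2.32 (KO against Het) at day 3. Among members of at least 1 FPKM in a group they were 4.02 (KO against Het, day 5), 1.82, 2.21 and -1.44 (KO against wild type, KO against Het and Het against wild type, day 3), and 3.42, 3.13 and 1.87 (day 5 against day 3 in KO, Het and wild type). Without HOXA2, the HOXA ratio over wild type was 117.5 in KO (1.196 with it; 4 members listed at 0 in wild type count as 0) and 0.144 in Het (0.879 with it) at day 5. At day 3 it was 2.49 in KO (0.542 with it, so its direction turned) and 0.112 in Het. The Het HOXB ratio was 0.500 without HOXB2 at day 5 (1.48 with it, so its direction turned) and 0.183 without HOXB1 at day 3. The cause was not tested beyond this construction.

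Of 22 calls of named members, 11 were against a group listed at 0, where no fold or SE bears on the call. With q below 0.01, 18 of the 22 held, and with adjustment within the comparison 21. The calls lost with q below 0.01 were HOXA2 (Het against wild type at day 3, KO against Het at day 5), HOXB3 (KO against Het at day 5) and HOXB4 (KO, day 5 against day 3), and HOXB3 against Het was lost under both. Centring on all genes, on the chromosome or, added after seeing the data, on genes of like GC content reversed 0 of the called changes with a fold. Every median subtracted was smaller in size than these changes, so no direction could have turned and this is no check of direction. The values over members above 0 in both groups were also added after seeing the data. Levels near 0 and the 0 entries limit all statements on absent members.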
